A study of Mus musculus with 7 samples.

Results

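Slc12a4 (KCC1) and 5 relatives in the SLC12 family of cation-chloride cotransporters were followed through RNA-seq libraries of retinal pigment epithelium (RPE), the pigmented layer between the photoreceptors and the choroid. The 6 genes were Slc12a4, Slc12a2, Slc12a5, Slc12a7, Slc12a8 and Slc12a9, found by symbol among the 21861 rows of a table of read counts. Slc12a4 was selected on its higher level in the AAV-GSTA4 libraries than in the AAV-GFP libraries, so its own difference is described here and not tested. The other 5 were taken as its family. All mice were aged and were sampled 12 weeks after treatment with adeno-associated virus (AAV): 3 libraries came from mice given AAV-GFP, the vector control, and 4 from mice given AAV-GSTA4, which carries a glutathione transferase that conjugates lipid aldehydes. The comparison asks what GSTA4 delivery changed in aged RPE. The labels give no strain, sex, age in months, vector promoter or serotype, and do not say whether each library is 1 animal. The p-values therefore weigh a difference against the spread between these libraries, which may be partly technical.

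SLC12 proteins move chloride together with sodium, potassium or both, without moving net charge, and so set the chloride content and volume of cells. NKCC1, the product of Slc12a2, loads chloride into the cell and sits in the apical membrane of the RPE, where it supplies the chloride that leaves through basolateral channels and draws fluid out of the subretinal space. The potassium-chloride cotransporters KCC1 (Slc12a4), KCC2 (Slc12a5) and KCC4 (Slc12a7) run the other way and release both ions. Chloride-sensitive WNK kinases act through the kinases SPAK and OSR1 to switch NKCC1 on and the KCCs off.

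The stretches before the starts of Slc12a4 and Slc12a7 are shown because, of the 3 KCC genes among the 6, these had the most similar levels over the libraries (correlations are given with the likeness of members). Both are RefSeq sequences of GRCm38.p6, 250 bases long, read 5′ to 3′ on the gene's own strand and ending at the base before the transcript start. Capitals mark the GC box GGGCGG, on either strand. The Slc12a4 stretch is chr8:105966116-105966365 (minus strand) and the Slc12a7 stretch is chr13:73763410-73763659 (plus strand), the first of 2 overlapping windows listed for that gene. The Slc12a7 stretch precedes a RefSeq start that lies inside the longer GENCODE M21 model of the gene, which begins at 73733094.
Slc12a4: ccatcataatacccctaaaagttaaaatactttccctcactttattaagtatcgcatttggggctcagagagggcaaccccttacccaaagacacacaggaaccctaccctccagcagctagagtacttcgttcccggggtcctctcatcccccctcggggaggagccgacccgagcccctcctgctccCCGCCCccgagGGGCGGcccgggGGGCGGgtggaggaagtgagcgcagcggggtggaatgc
Slc12a7: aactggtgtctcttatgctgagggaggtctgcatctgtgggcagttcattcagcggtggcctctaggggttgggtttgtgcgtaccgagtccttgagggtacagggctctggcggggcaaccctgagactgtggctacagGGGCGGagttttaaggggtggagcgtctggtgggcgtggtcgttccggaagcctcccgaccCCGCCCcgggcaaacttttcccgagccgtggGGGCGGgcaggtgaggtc
Each stretch holds 3 GC boxes, and 32.7% of the 32851 such stretches of mouse genes hold at least 1. Their GC content is 60.8% and 63.6%, against a median of 52.4% over all stretches. This is not particular to the printed pair: stretches of Slc12a5 are at 61.2% and 67.2% and that of Slc12a9 at 61.6%. Those of Slc12a8 are at 52.0% to 53.6%. Neither printed stretch holds the E-box CACGTG (6.02% of stretches), the M-box TCATGTG (3.25%), the homeodomain core GGATTA (6.25%) or the antioxidant response core TGACNNNGC (10.2%), each searched on both strands. The second Slc12a7 window, which overlaps the printed one and is not shown, holds 6 GC boxes and 1 E-box. A match of letters is a description of the sequence and not evidence of binding.

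Slc12a4 lies on chromosome 8 (105943590 to 105966097, minus strand, GRCm38) and has 25 merged exon regions. Slc12a2 lies on chromosome 18 (57878678 to 57946821, plus strand) with 27, Slc12a5 on chromosome 2 (164960802 to 164999731, plus strand) with 29, and Slc12a7 on chromosome 13 (73733094 to 73816754, plus strand) with 20. Slc12a8 lies on chromosome 16 (33517328 to 33664135, plus strand) with 17 and Slc12a9 on chromosome 5 (137314558 to 137333597, minus strand) with 15. These are GENCODE M21 gene models. An antisense gene, Gm16156, shares 361 exonic bases with Slc12a4, or 8.44% of its exonic length. The library kits do not mark strand, so reads of both genes in that stretch cannot be told apart, and Gm16156 is not analysed here.

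The libraries held 15329181 to 28998964 counts, and 3 counts, taken as the smallest detectable level, corresponded to 0.103 to 0.196 CPM (counts per 1000000) of the library total. All 16 RPE marker genes examined, Rpe65 among them, had counts in every library. The transgene rows bore out the vector labels only in part. hGSTA4 had 1 to 3 counts in AAV-GFP and 4209, 5239, 45 and 1184 counts in AAV-GSTA4 replicates 1 to 4. In contrast, d2EGFP was lower in AAV-GFP replicate 1 (99 counts) than in AAV-GSTA4 replicate 1 (163 counts). AAV-GFP replicate 3 stood apart, its log2 CPM correlating at 0.838 on average with those of the rest, where the next lowest library was at 0.9095. It also had the least RPE marker RNA and the most rod RNA.

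Slc12a4 was the member with the most transcript per length and the one whose groups were apart. Its level was 62.9, 53.2 and 63.4 CPM in AAV-GFP replicates 1 to 3 and 146, 95.7, 144 and 132 CPM in AAV-GSTA4 replicates 1 to 4. CPM here is scaled by the trimmed mean of M-values (TMM). Every AAV-GSTA4 library lay above every AAV-GFP library, and AAV-GSTA4 replicate 2 was the lowest of its group. Within AAV-GSTA4 the Slc12a4 levels did not follow those of hGSTA4, at 221, 251, 2.64 and 43.6 CPM in replicates 1 to 4. A relation between the 2 genes was not tested. The AAV-GFP mean was 59.8 CPM ± 5.73 (SD, n = 3), the AAV-GSTA4 mean was 129 CPM ± 23.4 (SD, n = 4) and their ratio was 2.17, and the edgeR log2 fold change came to 1.11 ± 0.22 (SE). These values describe the difference for which the gene was chosen. Of all 15075 genes tested, 6.44% were likewise higher without overlap in AAV-GSTA4 and 5.61% were lower without overlap. Without AAV-GFP replicate 3 the log2 fold change came to 1.16 ± 0.22 (SE).

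The separation narrowed when levels were set against the unscaled library total. Slc12a4 was then at 62.2, 55.8 and 86.2 CPM of the total in AAV-GFP and at 141, 86.5, 125 and 123 CPM of the total in AAV-GSTA4. AAV-GFP replicate 3 and AAV-GSTA4 replicate 2 were nearly level on that scale, and the log2 fold change came to 0.81 ± 0.24 (SE). Library totals moved the median of the 15075 log2 fold changes by -0.30. Relative to that median Slc12a4 was 1.19 higher with TMM and 1.18 higher with library totals. A change of scaling moves most log2 fold changes by a similar amount, so this match follows largely from subtracting each scaling's own median.

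Set against RPE marker RNA, the groups overlapped. Per 1000 counts on the 16 RPE markers, Slc12a4 had 0.840, 0.896 and 2.57 counts in AAV-GFP and 1.71, 1.47, 1.25 and 1.38 in AAV-GSTA4. AAV-GFP replicate 3 was the highest of all 7 libraries on this measure, and the other AAV-GFP libraries were the lowest. The summed RPE markers were at 24662 to 74838 CPM in AAV-GFP and 64941 to 115898 CPM in AAV-GSTA4, with 11 of 16 higher in AAV-GSTA4 and none at 0 in any library. Over all 15075 genes 44.6% had a positive log2 fold change, a share to set beside the sign counts of every list here. The part of the RPE markers in the Slc12a4 difference was not tested. In tissue RNA, fewer cells of a type and less RNA per cell cannot be told apart.

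Counts on Y-linked genes were present in AAV-GFP replicate 1 and AAV-GSTA4 replicates 3 and 4 and at 2.56 CPM of the total or lower in the others. Since Slc12a4 was chosen as higher in AAV-GSTA4 and its groups do not overlap, its order within any such class is given by the choice. It was at 62.9 CPM against 144 and 132 CPM among libraries with Y-linked counts. Among those without it was at 53.2 and 63.4 CPM against 146 and 95.7 CPM. Slc12a2 was higher in every library with Y-linked counts, at 92.4 to 131 CPM, than in any without, at 29.8 to 87.5 CPM. No other member was split in this way, and a relation to the Y-linked counts was not tested.

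**Figure D1:**
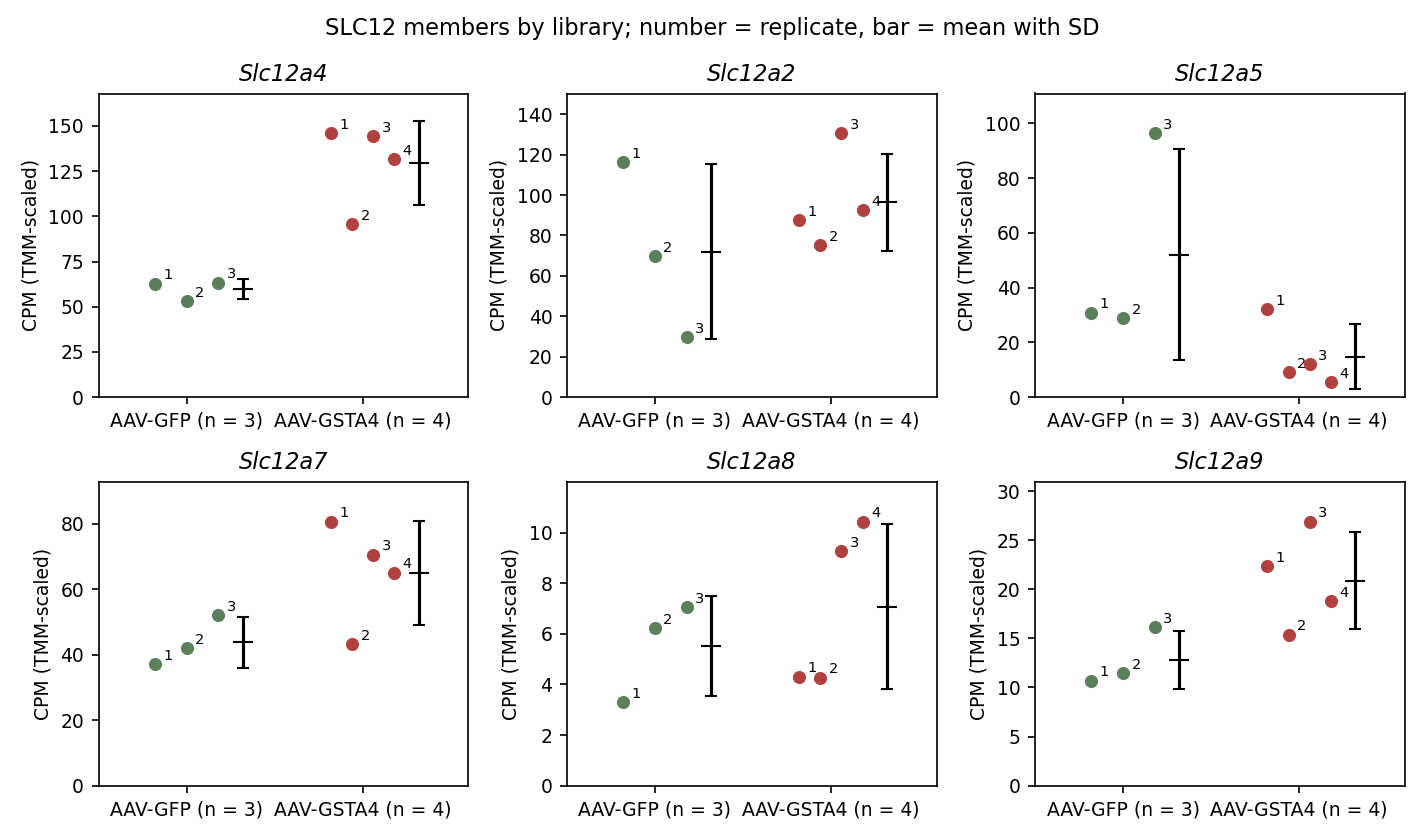
Level of each SLC12 member in every library, as TMM-scaled CPM on axes that start at 0. Points are libraries numbered by replicate and bars are the mean with SD; for Slc12a4 the 4 AAV-GSTA4 libraries, from 95.7 to 146 CPM, all lie above the AAV-GFP libraries, while the groups of the other 5 members overlap.

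Among the 5 relatives no difference passed. In the whole data set 0 of 15075 genes (0%) had an adjusted p-value under 0.05 by the quasi-likelihood test of edgeR, with 0 in limma-voom and 166 of 12656 (1.31%) in DESeq2. At an unadjusted p-value under 0.05 edgeR had 1794 genes (11.9%), of which 795 (5.27%) were higher and 999 (6.63%) lower in AAV-GSTA4. With library totals that split was 268 higher and 2122 lower. Of the 5 relatives, 2 were higher (Slc12a7 and Slc12a9) and 1 lower (Slc12a5) at that level. These calls rest on single libraries: only Slc12a5 was left without AAV-GFP replicate 2, AAV-GSTA4 replicate 1 or AAV-GSTA4 replicate 3, and also with library totals. Without AAV-GFP replicate 3 Slc12a7 and Slc12a9 were left, without AAV-GSTA4 replicate 4 Slc12a5 and Slc12a9, and without AAV-GFP replicate 1 Slc12a5 with Slc12a2 as higher. The median log2 fold change of the 5 relatives came to 0.42, against -0.07 over all genes tested.

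KCC4, the product of Slc12a7, is a potassium-chloride exporter found in many epithelia. Slc12a7 was at 37.1, 42.0 and 52.2 CPM in AAV-GFP and at 80.7, 43.3, 70.6 and 65.1 CPM in AAV-GSTA4. Only AAV-GSTA4 replicate 2 lay inside the range of the other group, and that library was also the lowest of its group for Slc12a4. The log2 fold change came to 0.57 ± 0.25 (SE), with an unadjusted p of 0.0496 and an adjusted p of 0.418 by edgeR. With library totals the Slc12a7 value was 0.24 ± 0.30 (SE), with an unadjusted p of 0.441 by edgeR.

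KCC2, the product of Slc12a5, is the potassium-chloride exporter of neurons, where it keeps internal chloride low. Slc12a5 was the most variable member, at 30.9, 28.8 and 96.4 CPM in AAV-GFP and 32.1, 9.30, 12.0 and 5.46 CPM in AAV-GSTA4. Its highest library was 17.7 times its lowest. AAV-GFP replicate 3 was far above the rest, and AAV-GSTA4 replicate 1 lay level with the other AAV-GFP libraries, so the groups overlapped. The log2 fold change came to -1.82 ± 0.62 (SE), with an unadjusted p of 0.0151 and an adjusted p of 0.365 by edgeR. It was -1.02 ± 0.63 (SE) without AAV-GFP replicate 3, with an unadjusted p of 0.151 by edgeR, and -2.52 ± 0.54 (SE) without AAV-GSTA4 replicate 1.

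Slc12a5 followed the markers of retinal neurons from library to library. The 21 inner retinal neuron markers summed to 2181, 1565 and 2817 CPM in AAV-GFP and to 1917, 889, 1027 and 867 CPM in AAV-GSTA4. AAV-GFP replicate 3 was the highest library and AAV-GSTA4 replicates 2, 3 and 4 the lowest 3 on both measures. Of the 20 such markers tested, 19 had a negative log2 fold change and 0 passed the adjusted threshold by edgeR, and Slc32a1 was at 0 in at least 1 library. Rod markers were lower as well, at 19066 to 48716 CPM in AAV-GFP and 9986 to 17474 CPM in AAV-GSTA4, with 20 of 20 negative and none at 0 in a library. The part of neuronal RNA in the Slc12a5 difference was not tested.

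NKCC1, the chloride importer encoded by Slc12a2, was at 116, 69.7 and 29.8 CPM in AAV-GFP and at 87.5, 75.2, 131 and 92.4 CPM in AAV-GSTA4. The AAV-GFP libraries spanned almost the whole range, and the AAV-GSTA4 libraries lay within or just above it. The log2 fold change of Slc12a2 was 0.42 ± 0.40 (SE), with an adjusted p of 0.702 by edgeR. Single libraries moved it: it was 0.06 ± 0.27 (SE) without AAV-GFP replicate 3 and 0.96 ± 0.39 (SE) without AAV-GFP replicate 1, and neither passed the adjusted threshold.

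Over all 7 libraries Slc12a2 was the member that kept closest to the RPE markers. Per 1000 RPE marker counts it had 1.56, 1.17 and 1.21 counts in AAV-GFP and 1.02, 1.16, 1.13 and 0.967 in AAV-GSTA4. Its coefficient of variation over the 7 libraries was 38.3% in CPM and 16.1% on this scale. For Slc12a4 the corresponding values were 41.1% and 40.4%. For Slc12a5, Slc12a7, Slc12a8 and Slc12a9 the spread was wider on the marker scale, at 62.8% or more. AAV-GFP replicate 3 was the highest library of each of these genes, Slc12a4 included, on that scale. Slc12a7 had 2.12 counts there and 0.495 to 0.945 in the other libraries, and Slc12a9 had 0.656 there and 0.143 to 0.262 elsewhere. The wider spread thus leaned on that 1 library, and coefficients without it were not calculated. The differences between the coefficients over 7 libraries were not tested.

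**Figure D2:**
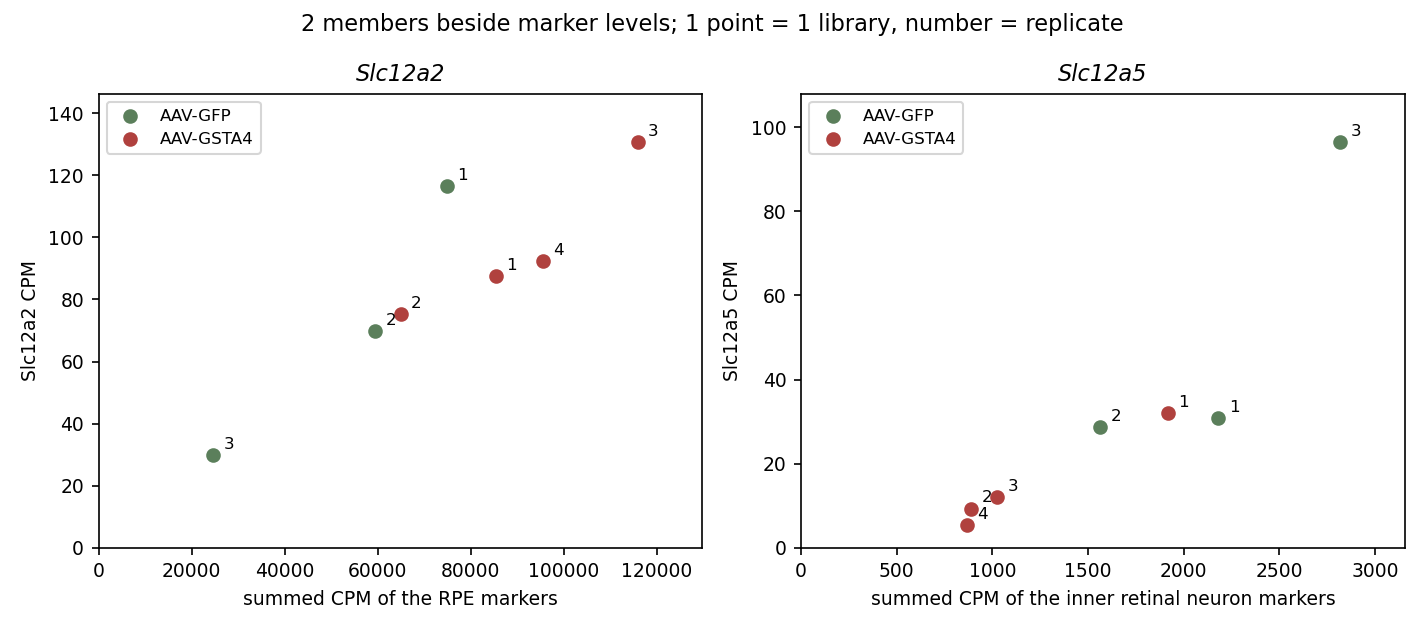
Slc12a2 against the summed RPE markers (left) and Slc12a5 against the summed inner retinal neuron markers (right), both axes in TMM-scaled CPM from 0. Each point is 1 library, numbered by replicate; AAV-GFP replicate 3, at 29.8 CPM of Slc12a2 and 96.4 CPM of Slc12a5, is the lowest library in the left panel and the highest in the right.

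Slc12a8 and Slc12a9 are the distant branches of the family. The transport function of Slc12a9, also called CIP1, is poorly defined, and Slc12a8 has been described as a nicotinamide mononucleotide transporter, a role that is debated. Slc12a9 was at 10.7, 11.5 and 16.2 CPM in AAV-GFP and at 22.4, 15.4, 26.9 and 18.8 CPM in AAV-GSTA4. The groups overlapped only through AAV-GFP replicate 3 and AAV-GSTA4 replicate 2. The log2 fold change of Slc12a9 was 0.71 ± 0.29 (SE), with an unadjusted p of 0.0356 and an adjusted p of 0.393 by edgeR. With library totals the Slc12a9 value was 0.36 ± 0.34 (SE), with an unadjusted p of 0.317 by edgeR, and without AAV-GFP replicate 3 it was 0.91 ± 0.29 (SE).

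Slc12a8 was the scarcest member, with 71 to 283 counts per library. It was at 3.31, 6.21 and 7.05 CPM in AAV-GFP and at 4.31, 4.27, 9.28 and 10.4 CPM in AAV-GSTA4. Low and high libraries occurred in both groups. The log2 fold change came to 0.36 ± 0.47 (SE), with an adjusted p of 0.786 by edgeR, and it was 0.00 ± 0.51 (SE) with library totals and 0.56 ± 0.51 (SE) without AAV-GFP replicate 3.

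**Figure D3:**
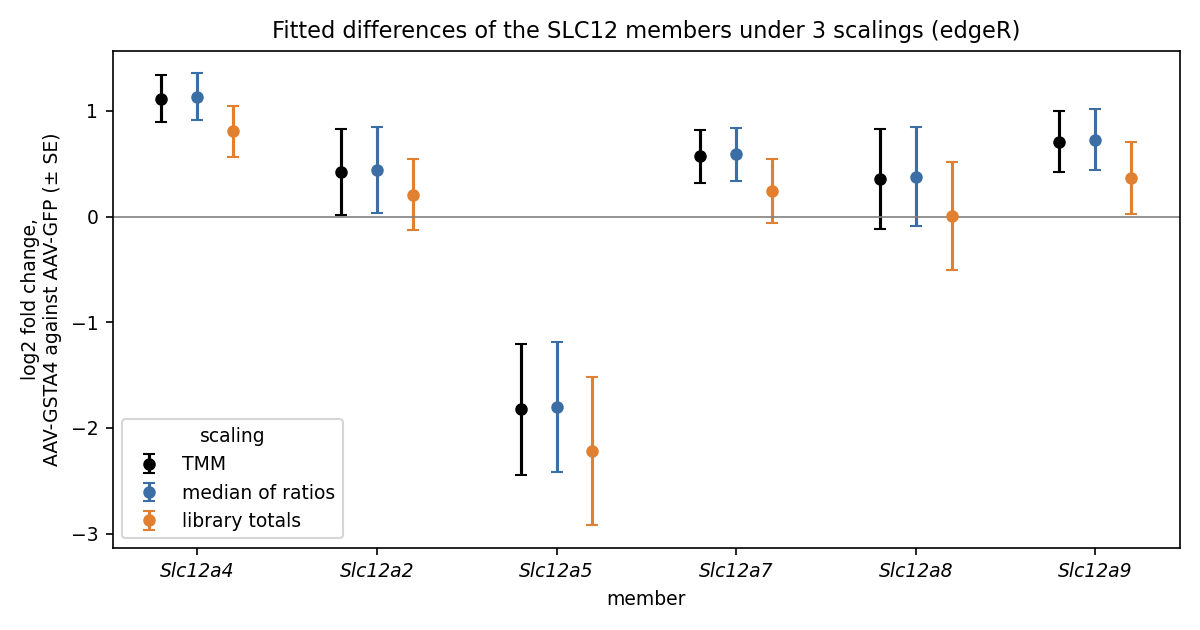
Differences fitted by edgeR (log2 fold change, AAV-GSTA4 over AAV-GFP) for each SLC12 member, with SE bars, under TMM, median-of-ratios and library-total scaling. Slc12a4, at 1.11, 1.13 and 0.81, is shown as the gene chosen for this difference; Slc12a5 is the member below 0, and library totals place every member lower than TMM does.

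Taken relative to the median fold change of the 15075 genes, the relatives too had similar values under both scalings. Subtracting each scaling's own median removes most of what the scaling changes, so the match is no test of the differences. With TMM these were 0.49 for Slc12a2, -1.75 for Slc12a5, 0.64 for Slc12a7, 0.43 for Slc12a8 and 0.78 for Slc12a9. With library totals they were 0.58, -1.85, 0.61, 0.37 and 0.73 in the same order.

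The share of the family's counts taken by Slc12a4 was steady within groups, and the shares of Slc12a2 and Slc12a5 were less so. Slc12a4 took 24.1%, 25.2% and 23.9% of the 6 members' counts in AAV-GFP and 39.2%, 39.4%, 36.7% and 40.7% in AAV-GSTA4. These shares need no scaling between libraries, and they rest on the gene chosen for its difference, so they carry no test. Slc12a2 took 44.6%, 33.0% and 11.2% in AAV-GFP and 23.5%, 30.9%, 33.2% and 28.5% in AAV-GSTA4. Slc12a5 took 11.8%, 13.6% and 36.4% in AAV-GFP and 8.60%, 3.82%, 3.06% and 1.68% in AAV-GSTA4, so AAV-GSTA4 was lower without overlap on this measure, of which Slc12a4 is part of the denominator. The share of Slc12a7 lay between 14.2% and 21.6% in all 7 libraries.

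**Figure D4:**
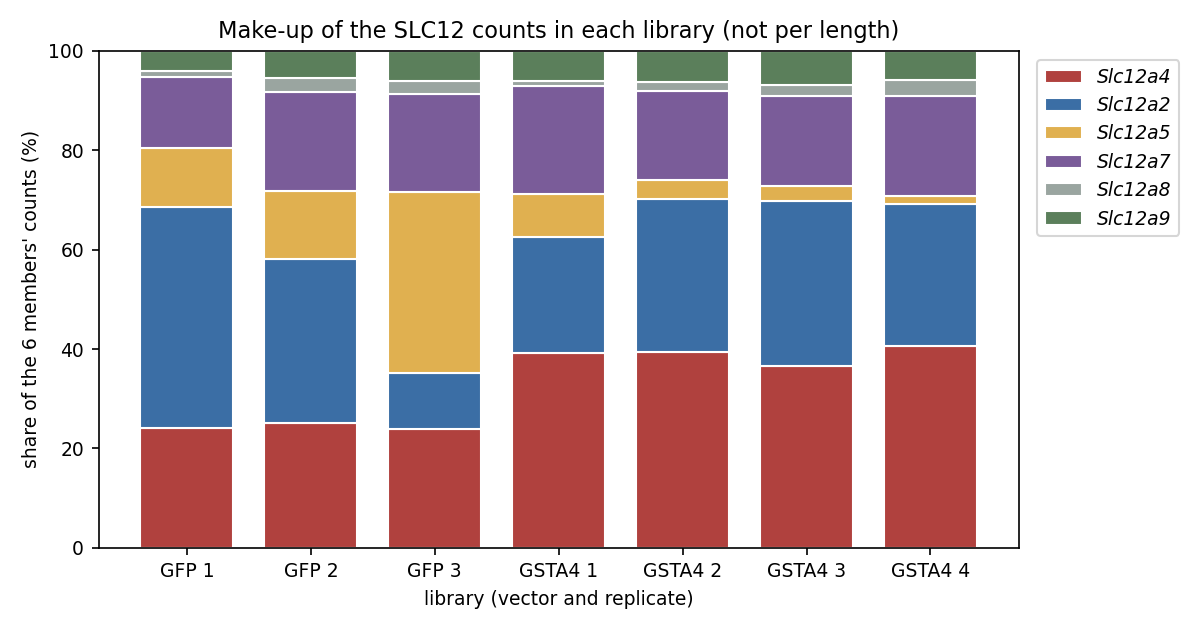
Share of the summed counts of the 6 SLC12 members taken by each of them, in percent, per library and not per length. Slc12a4 takes 23.9% to 25.2% in the AAV-GFP libraries and 36.7% to 40.7% in the AAV-GSTA4 libraries, and Slc12a5 is largest in AAV-GFP replicate 3 at 36.4%.

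Per kilobase of exonic sequence, Slc12a4 was the highest of the 6 members in every library. Its level was 13.98 CPM per kb ± 1.34 (SD, n = 3) in AAV-GFP and 30.3 CPM per kb ± 5.48 (SD, n = 4) in AAV-GSTA4. In AAV-GFP the next levels were Slc12a5 at 6.99 CPM per kb ± 5.16 (SD, n = 3) and Slc12a2 at 6.59 CPM per kb ± 3.97 (SD, n = 3), which did not differ beyond their spread. The Slc12a5 level rested on AAV-GFP replicate 3, at 12.9 CPM per kb: without it the means were 4.01 CPM per kb for Slc12a5 and 8.52 CPM per kb for Slc12a2, which was second to Slc12a4 in both other AAV-GFP libraries. Slc12a7 at 3.45 CPM per kb ± 0.609 (SD, n = 3) and Slc12a9 at 2.55 CPM per kb ± 0.589 (SD, n = 3) followed, and Slc12a8 was last at 1.24 CPM per kb ± 0.442 (SD, n = 3). In AAV-GSTA4 Slc12a2 was second at 8.83 CPM per kb ± 2.19 (SD, n = 4). Slc12a7 at 5.13 CPM per kb ± 1.25 (SD, n = 4) and Slc12a9 at 4.16 CPM per kb ± 0.983 (SD, n = 4) were within each other's spread, as were Slc12a5 at 1.98 CPM per kb ± 1.60 (SD, n = 4) and Slc12a8 at 1.59 CPM per kb ± 0.731 (SD, n = 4). The order depends on the gene model. With the longest coding transcript as the length, Slc12a4 was first in 6 of 7 libraries and second to Slc12a2 in AAV-GFP replicate 1, at 16.5 against 17.9 CPM per kb. On that length Slc12a7 was at 12.6 CPM per kb ± 3.07 (SD, n = 4) in AAV-GSTA4. That was within the spread of Slc12a2, at 14.8 ± 3.67, and apart from Slc12a9, at 6.26 ± 1.48. Slc12a7 was then second to Slc12a4 in AAV-GSTA4 replicate 1.

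The ratio of a chloride exporter to the importer was compared within libraries, which needs no scaling. The log2 ratio of Slc12a7 to Slc12a2 counts was -1.65, -0.73 and 0.81 in AAV-GFP and -0.12, -0.79, -0.89 and -0.50 in AAV-GSTA4. The AAV-GFP libraries enclosed all 4 AAV-GSTA4 values. The difference of means was -0.05, and the two-sided exact permutation test over 35 relabellings gave p = 0.886, where the smallest possible value is 0.0286. Without AAV-GFP replicate 3 the difference was 0.62. The log2 ratio of Slc12a4 to Slc12a2, which holds the chosen gene and is not tested, was -0.89, -0.39 and 1.09 in AAV-GFP and 0.74, 0.35, 0.15 and 0.51 in AAV-GSTA4, and those groups overlapped through AAV-GFP replicate 3.

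Members varied together to different degrees over the 7 libraries. With Slc12a4, the Pearson correlation of log2 CPM was 0.890 for Slc12a9, 0.857 for Slc12a7, 0.486 for Slc12a2, 0.338 for Slc12a8 and -0.583 for Slc12a5. Slc12a7 and Slc12a9 had the highest value of any pair, at 0.924. With each group's mean subtracted, the values with Slc12a4 were 0.839 for Slc12a7 and 0.744 for Slc12a9. These are descriptions over 7 libraries that share the group difference and their preparation, and no p-value is attached.

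The genes most like Slc12a4 were sought among the 11108 tested genes whose log2 CPM averaged 2 or more. The 5 highest correlations belonged to Nacc2, a transcriptional repressor (0.989), Myh14, a non-muscle myosin heavy chain (0.987), Lamb2, a basement membrane laminin chain (0.986), Plxnb2, a semaphorin receptor (0.985), and Tmco4, a membrane protein (0.984). Plxnb2 was at 227, 205 and 213 CPM in AAV-GFP and 514, 360, 534 and 407 CPM in AAV-GSTA4. Myh14 was at 51.9, 43.2 and 45.3 CPM in AAV-GFP and 145, 70.6, 135 and 119 CPM in AAV-GSTA4. Like Slc12a4, both were lowest among AAV-GSTA4 libraries in replicate 2. This and their higher AAV-GSTA4 levels follow from picking genes by their likeness to Slc12a4 over the same libraries. With group means subtracted the 5 highest were Rogdi (0.987), Wipi1, an autophagy protein (0.986), Fbxo27 (0.984), Adgrl1 (0.982) and Ago2, an RNA silencing protein (0.978). The 2 lists share no gene.

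The other genes of chloride and potassium transport were read from 6 lists, of which 80 of 83 genes were expressed enough to be tested. In edgeR's test 0 passed the adjusted threshold, and 15 of 80 (18.8%) had an unadjusted p-value under 0.05, 10 higher and 5 lower, beside 11.9% of all genes tested. The median log2 fold change of the 80 genes was -0.13. The count of 15 dropped to 7 without AAV-GSTA4 replicate 3 and to 8 without AAV-GSTA4 replicate 4, and was 28 by limma-voom. With library totals the split turned to 2 higher and 12 lower of 80, beside 268 higher and 2122 lower of all 15075 genes. The library-total counts of single lists below are to be read beside that split of all genes.

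The regulators of the family showed no common direction. Of 22 genes of the WNK, SPAK and OSR1 pathway, 8 had a positive and 14 a negative log2 fold change. Of all genes tested 44.6% were positive. At an unadjusted p-value under 0.05 by edgeR there were 3 genes (13.6%, beside 11.9% of all genes), 1 higher and 2 lower. With library totals 0 were higher and 4 lower by edgeR, beside 268 and 2122 of all 15075 genes. Wnk4, a chloride-sensing kinase, was at 28.8, 28.1 and 37.1 CPM in AAV-GFP and 57.2, 35.2, 68.9 and 56.7 CPM in AAV-GSTA4, a log2 fold change of 0.80 ± 0.26 (SE, adjusted p-value 0.363 by edgeR). Ppp1cc, a catalytic subunit of protein phosphatase 1, was at 65.97, 81.3 and 92.7 CPM in AAV-GFP and 50.1, 26.2, 21.5 and 24.7 CPM in AAV-GSTA4, without overlap. Its log2 fold change came to -1.39 ± 0.31 (SE), with an adjusted p of 0.363 by edgeR. The third was Stk24, a kinase at 2.73 to 6.64 CPM, with a log2 fold change of -0.93 ± 0.38 (SE). Stk39, which encodes SPAK, and Oxsr1, which encodes OSR1, had log2 fold changes of 0.20 ± 0.28 (SE) and -0.44 ± 0.35 (SE), with adjusted p-values of 0.801 and 0.631 by edgeR. They were named after their values were seen, as the kinases that act on the members directly.

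Among 20 chloride channel genes tested, 6 were higher and 1 lower at an unadjusted p-value under 0.05, and the median log2 fold change came to 0.25 against -0.07 over all genes. Ttyh2 was at 12.7, 11.0 and 10.9 CPM in AAV-GFP and 21.3, 14.9, 28.1 and 24.0 CPM in AAV-GSTA4, with a log2 fold change of 0.94 ± 0.28 (SE). Clcn2, a voltage-gated chloride channel present in the RPE, was at 33.5, 44.2 and 24.6 CPM in AAV-GFP and 80.2, 44.8, 70.3 and 56.7 CPM in AAV-GSTA4, with a log2 fold change of 0.89 ± 0.28 (SE). The AAV-GSTA4 libraries of both genes lay above all AAV-GFP libraries, for Clcn2 by a narrow margin. Of all genes tested, 6.44% were higher without overlap. Ttyh1, a related gene of neurons and glia, had a log2 fold change of -1.44 ± 0.47 (SE). Each of these 3 had an adjusted p of 0.363 by edgeR. With library totals the direction of the chloride channel list changed: its median was -0.05 and 1 gene was higher and 1 lower at an unadjusted p-value under 0.05. Relative to the median of all tested genes it was 0.32 under both scalings, a match that follows largely from subtracting each scaling's own median.

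The anion exchanger Slc4a2, which swaps chloride for bicarbonate, was at 178, 177 and 137 CPM in AAV-GFP and 406, 181, 378 and 307 CPM in AAV-GSTA4. The groups did not overlap, though replicate 2 of AAV-GSTA4 lay close to the AAV-GFP libraries, as it did for Clcn2. The log2 fold change came to 0.96 ± 0.31 (SE), with an adjusted p of 0.363 by edgeR. Slc26a11, a sulfate and chloride transporter, had a log2 fold change of 0.79 ± 0.28 (SE) and an adjusted p of 0.373 by edgeR. These were the 2 of 15 other exchangers with an unadjusted p-value under 0.05 by edgeR (13.3%, beside 11.9% of all genes). The list's median was 0.12, or -0.21 with library totals, where 1 gene was higher and 1 lower.

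Of the 11 potassium channel genes, 1 was higher and 2 lower at an unadjusted p-value under 0.05 by edgeR (27.3%, beside 11.9% of all genes). Their median log2 fold change was -0.89. The lower genes were Kcnj14, an inward rectifier, with a log2 fold change of -1.05 ± 0.40 (SE), and Kcnk1, a two-pore-domain channel, with -0.89 ± 0.36 (SE). With library totals 0 potassium channel genes were higher and 3 lower, beside 268 and 2122 of all 15075 genes. None of the 10 genes of the sodium pump, which builds the gradient that drives NKCC1, had an unadjusted p-value under 0.05 by edgeR. Of these 10, 9 had a negative log2 fold change, where 44.6% of all genes tested had a positive one. With library totals 2 sodium pump genes were lower at an unadjusted p-value under 0.05 by edgeR. Kcnj14 was at 139, 204 and 415 CPM in AAV-GFP and 166, 118, 132 and 70.1 CPM in AAV-GSTA4, highest in the library richest in rod and neuron markers. The part of those markers in these 2 lists was not tested.

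**Figure D5:**
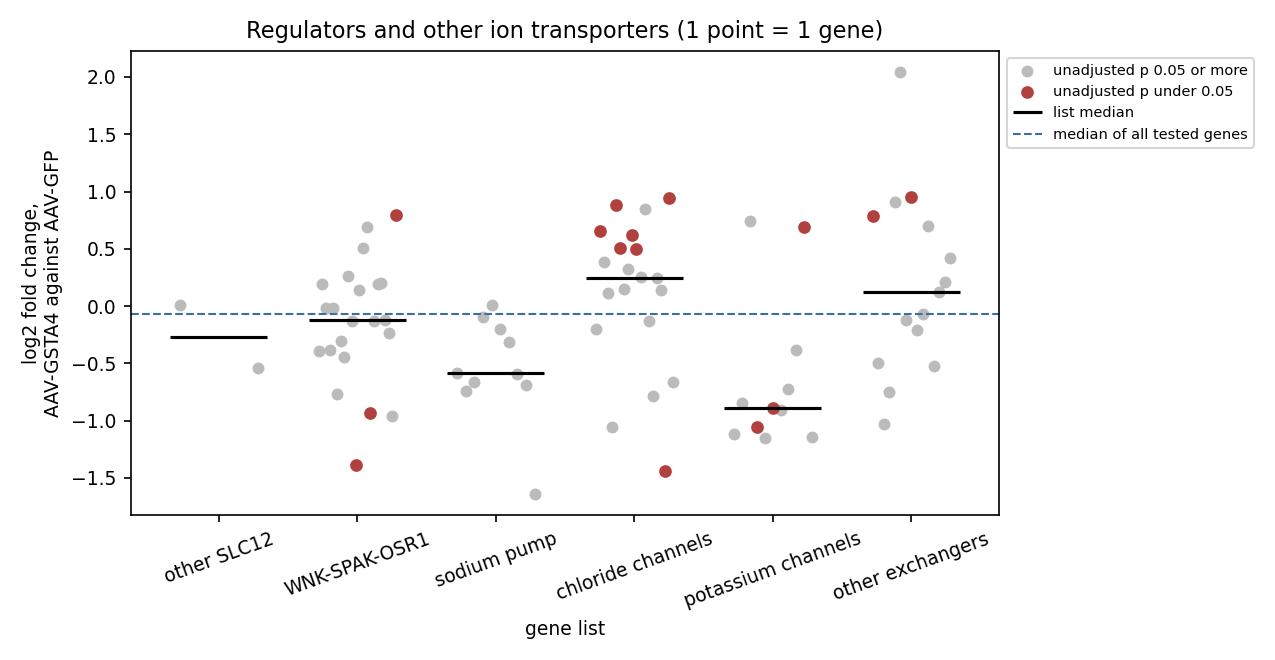
Log2 fold change (AAV-GSTA4 over AAV-GFP) for each tested gene of the 6 transport lists; 1 point is 1 gene, red where the unadjusted p-value is under 0.05. Black lines are list medians, from -0.89 for potassium channels to 0.25 for chloride channels, and the dashed line is the median of all tested genes at -0.07.

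The kidney importers of the family, which are not among the 6, had few counts. Slc12a1, the kidney sodium-potassium-chloride importer, had 2 to 61 counts per library. Slc12a3, the kidney sodium-chloride importer, had 0 to 22 counts and was not expressed enough to be tested.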

How the data were processed

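Libraries of aged mouse RPE were made with the SMART-Seq v4 and Nextera XT kits, per the labels' protocols; such libraries do not mark strand. The authors deposited 1 table of raw read counts per gene symbol. STAR 2.7.1a, featureCounts 1.6.2 and the builds GRCh38 and GRCm38 are named in the submitters' processing notes; the annotation, counting strand and multi-mapping rule are not given in the sources used here. Reads have no molecular identifiers, so detection limits cover counting error only. Count columns carry the submitters' library names (AAV-GFP 1, 3 and 4); replicates here follow the sample titles (AAV-GFP 1, 2 and 3). Where a symbol was repeated (26 extra rows), its most abundant row was used under the symbol. No 2 libraries agreed within sampling noise (chi-square per gene at least 57.5).

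All genes were fitted with edgeR 4.0.16 (R 4.3.3; quasi-likelihood F-test, TMM, default expression filter, robust dispersion, group as the only factor), with Benjamini-Hochberg adjustment over 15075 genes and a threshold of 0.05. The fit was tested on simulated data. Standard errors are |log2 fold change| over √F. Log2 CPM used a prior count of 2, and log2 ratios added 0.5 to each count. Exonic lengths are merged GENCODE M21 exons. List medians with library totals, and levels per kilobase without AAV-GFP replicate 3, were added after seeing the data. The members and all gene lists were chosen with earlier results of these data known. Named genes were the members, the 5 genes most like Slc12a4 by each measure, and in each transport list the 2 smallest p-values in each direction under an unadjusted 0.05. Of the 14 marker lists, those for RPE, inner retinal neurons and rods are given in the text beside the members they touch, and the rest in the closing section. Alternatives were median-of-ratios scaling, library totals, 2 other filters, DESeq2 1.42.0, limma-voom 3.58.1 with quality weights, a replicate block by either numbering, and each library left out. The longest-transcript length was chosen after seeing the data. Some genes of the transport lists are counted but not reported by name here.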

Additional observations from a re-analysis of the deposited data

How the results depend on the processing

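No SLC12 relative passed the adjusted threshold under any alternative run, and none changed direction. Across the fits that each left out 1 library the log2 fold change ran from 0.06 to 0.96 for Slc12a2, from -2.52 to -1.02 for Slc12a5, from 0.47 to 0.73 for Slc12a7, from 0.10 to 0.56 for Slc12a8 and from 0.57 to 0.91 for Slc12a9. The smallest adjusted p-value of a relative under any alternative was 0.0673, for Slc12a5 in limma-voom. Slc12a4 ran from 1.04 to 1.25 with 1 library left out and was 0.81 with library totals.

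Genes past the adjusted threshold numbered 166 in DESeq2, 1 with a replicate block by either numbering, and 0 to 1 with 1 library left out; the cause was not tested. Transport genes at an unadjusted p-value under 0.05 numbered 28 in limma-voom, 4 with a replicate block by title number, and 7 to 18 with 1 library left out (7 without AAV-GSTA4 replicate 3 and 8 without AAV-GSTA4 replicate 4), against 15. The Slc12a7 to Slc12a2 difference ran from -0.61 to 0.62 with 1 library left out and reversed without AAV-GFP replicate 3 (0.62), AAV-GSTA4 replicate 2 (0.02) or AAV-GSTA4 replicate 3 (0.05). The difference in the Slc12a4 share was 14.6 percentage points and 19.0 with Slc12a2 out of the denominator. Per kilobase it was 18.04, and 15.3 with the longest coding transcript.

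Equal numbers were not shown to pair libraries: deviations from group means correlated at -0.09 to 0.01 by title number and at -0.13 to 0.01 by library name. No relative passed the adjusted threshold with the replicate block. At an unadjusted p-value under 0.05 the replicate block left 1 relative by title number, Slc12a5, and 1 by library name, Slc12a7, against 3 without it.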

Other observations

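The remaining marker lists describe what else the preparations held, and their part in the values of the SLC12 members was not tested. Cone markers summed to 460 to 1128 CPM in AAV-GFP and 285 to 499.7 CPM in AAV-GSTA4, with 11 of 11 genes lower. Mueller glia and astrocyte markers summed to 7085 to 11551 CPM and 12035 to 18279 CPM in the same order, a list that holds genes the RPE also expresses. Endothelial markers summed to 44.2 to 192 CPM and 49.5 to 68.1 CPM. Fibroblast and pericyte markers summed to 297 to 1261 CPM and 602 to 925 CPM, and melanocyte markers to 214 to 680.1 CPM and 430 to 514 CPM. Macrophage and microglia markers summed to 473 to 940.1 CPM and 704 to 963 CPM, and lymphocyte markers to 48.0 to 55.8 CPM and 21.5 to 35.9 CPM, with 7 of 7 tested genes lower. Red cell markers summed to 437 to 1038 CPM and 424 to 2470 CPM. Ocular surface markers summed to 704 to 1116 CPM and 143 to 1063 CPM, and ciliary epithelium markers to 136 to 211 CPM and 96.4 to 192 CPM.

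Lens fibre markers summed to 86.3 to 311 CPM in AAV-GFP and to 554, 11876, 81.0 and 332 CPM in AAV-GSTA4 replicates 1 to 4. AAV-GSTA4 replicate 2, by far the highest in lens markers, was the AAV-GSTA4 library with the lowest level of Slc12a4, Slc12a2, Slc12a7 and Slc12a9. Its Slc12a8 level, 4.27 CPM, was nearly level with 4.31 CPM in AAV-GSTA4 replicate 1. AAV-GSTA4 replicate 2 also had the most hGSTA4 counts (5239). Without that library the log2 fold change was 1.25 for Slc12a4, 0.73 for Slc12a7 and 0.84 for Slc12a9.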
